A study of Mus musculus with 8 samples.

Results

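The genes described here carry dopamine and peptide signalling in the projection neurons of the striatum, the input nucleus of the basal ganglia. They were the dopamine receptor gene Drd2, 3 genes of the signalling machinery beneath the receptors (Ppp1r1b, Pde10a and Rasd2) and 3 neuropeptide precursor genes (Penk, Pdyn and Tac1). The members were taken by gene symbol from a list of 9, and every probe set whose single platform symbol was a member was used. That gave 10 probe sets for 7 genes, among 22626 probe sets and 12393 genes in all. Drd1 and Adora2a, also on the list, had no probe set with that single symbol and were not analysed here. The tissue was whole brain, taken from males of strain C57/B6 at an age of 3 months. BSKO mice were knockouts of SIRT1 restricted to the brain, where the protein removes acetyl groups from other proteins, and WT mice were wild-type littermates. The promoter behind the deletion and the deleted part of the gene are not given in the sources used here. There were 4 BSKO and 4 WT mice with 1 Affymetrix Mouse430A_2 array for each, and this number limits the precision.

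Striatal projection neurons release GABA and form a direct and an indirect pathway to the output nuclei of the basal ganglia. Neurons of the direct pathway express the D1 receptor, which raises cyclic AMP, together with dynorphin and substance P. Neurons of the indirect pathway express the D2 receptor, which lowers cyclic AMP, together with enkephalin and an adenosine receptor. DARPP-32, PDE10A and Rhes, the products of Ppp1r1b, Pde10a and Rasd2, are abundant in both kinds of neuron.

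The promoter bases of 3 members are shown because all members varied together over the arrays. Drd2 had the largest difference between the genotypes, Tac1 had the smallest, and Pdyn had the largest within replicates 1 and 2. The bases lie directly before the annotated gene in RefSeq (assembly GRCm38.p6) and are written 5′ to 3′. Capitals mark half-sites of the cyclic AMP response element (TGACG or, on the other strand, CGTCA) and GC boxes (GGGCGG or, on the other strand, CCGCCC). These motifs do not overlap in the stretches shown.
Drd2, chr9:49340153-49340359, plus strand: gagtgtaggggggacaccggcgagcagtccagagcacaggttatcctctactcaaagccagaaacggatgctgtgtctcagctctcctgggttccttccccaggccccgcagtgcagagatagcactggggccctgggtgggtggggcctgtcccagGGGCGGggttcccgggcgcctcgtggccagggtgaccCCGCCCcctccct
Tac1, chr6:7554811-7555060, plus strand: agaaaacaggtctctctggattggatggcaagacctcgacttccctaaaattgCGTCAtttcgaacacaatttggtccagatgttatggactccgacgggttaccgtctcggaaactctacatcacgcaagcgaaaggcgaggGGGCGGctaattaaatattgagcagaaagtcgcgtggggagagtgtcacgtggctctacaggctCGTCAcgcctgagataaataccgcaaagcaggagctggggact
Pdyn, chr2:129699939-129700188, minus strand: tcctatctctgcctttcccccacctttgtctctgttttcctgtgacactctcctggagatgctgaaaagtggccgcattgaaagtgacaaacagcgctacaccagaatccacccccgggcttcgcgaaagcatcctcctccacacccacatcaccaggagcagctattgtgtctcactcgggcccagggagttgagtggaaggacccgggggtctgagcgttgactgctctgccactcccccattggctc
The Tac1 stretch held a half-site that began 43 bases before the gene, another that began 197 bases before it, and a GC box at 107 bases. The Drd2 stretch held GC boxes at 50 and 13 bases before the gene and no half-site, and the Pdyn stretch held neither motif. Over the 32851 promoter windows of 250 bases in the RefSeq table, 17.8% held a half-site and 32.7% held a GC box on either strand. The last bases of the Drd2 window lie inside the annotated gene and are not shown, which leaves 207. Over the first 207 bases of all windows the shares were 13.5% for a half-site and 26.0% for a GC box. The matches describe the letters of these windows and no binding was measured. Promoters were matched for 5 of the 7 genes, and Penk and Ppp1r1b were without an entry.

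The deposited values are log2 values centred on the median of each probe set over the 8 arrays, so they hold differences between arrays. Levels cannot be compared between genes, and the labelled tissue cannot be checked against marker levels. In RNA from whole brain, fewer striatal cells in the sample and less RNA per striatal cell cannot be told apart. BSKO 2 stood apart from the other arrays. The SD over all probe sets was 0.831 on BSKO 2 and 0.150 to 0.314 on the other 7 arrays. For Actb the 5′ minus the 3′ signal (log2) was -2.44 on BSKO 2 and between -0.104 and 0.489 elsewhere. The main comparisons over all 8 arrays are given with and without this array. Sirt1, the targeted gene, differed by -0.50 between BSKO and WT (SE 0.31, adjusted p = 0.504 by limma over all genes), and by -0.15 without BSKO 2. The part of Sirt1 that its probe set covers is not given in the sources used here, so this value does not check the genotype labels.

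All 7 genes were higher in BSKO than in WT brain on average, by 1.54-fold for Tac1 and by 2.39-fold to 3.45-fold for the other 6. None of them passed the test over all genes. Every gene was lowest on WT 1 and WT 2 and highest on BSKO 3 and BSKO 4. BSKO 1, BSKO 2, WT 3 and WT 4 lay between them. The arrays between did not share a level for every gene: for Drd2 they ran from -0.34 on WT 4 to 0.83 on BSKO 2. Once the difference between replicates 1 and 2 and replicates 3 and 4 was fitted as a term, 5 of the 7 genes (Drd2, Ppp1r1b, Pde10a, Rasd2 and Pdyn) rose in BSKO, where 0.339% of all genes did. None of these 5 calls was left when BSKO 3 or any 1 WT array was omitted. The split was known from earlier results of these data, so the calls made with it are a description.

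**Figure D1:**
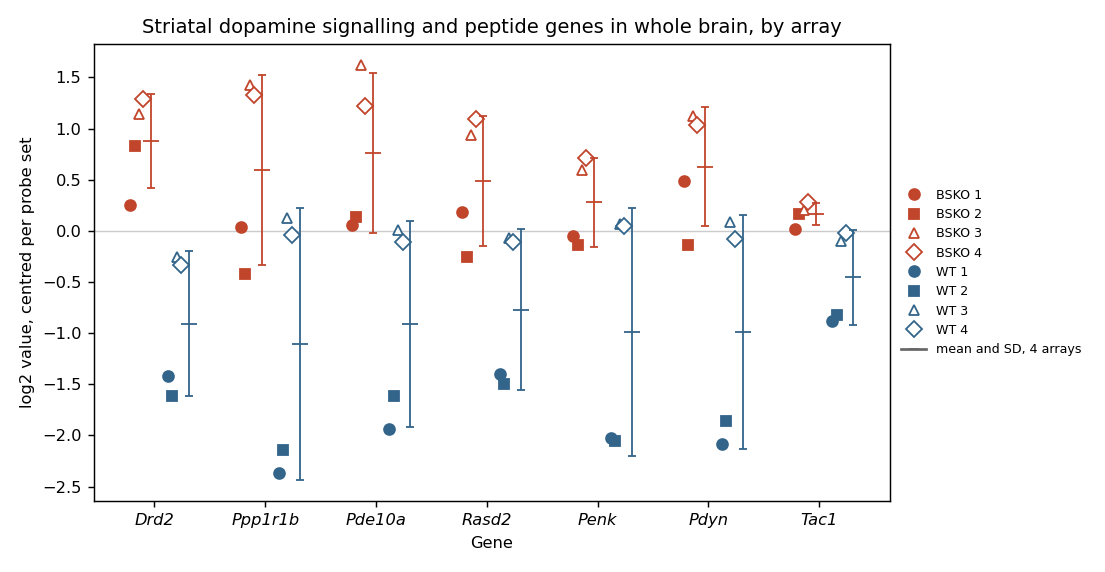
Log2 value of each gene on each array (vertical axis, centred per probe set, mean of a gene's probe sets), with BSKO in red left of WT in blue, filled symbols for replicates 1 and 2, open symbols for replicates 3 and 4, and bars for the mean and SD of 4 arrays. For all 7 genes WT 1 and WT 2 lie below the other 6 arrays and BSKO 3 and BSKO 4 lie above the other 6.

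Drd2 encodes the D2 dopamine receptor, which couples to inhibitory G proteins and marks the indirect pathway. On probe set 1418950_at its log2 values were 0.26, 0.83, 1.14 and 1.29 on BSKO 1 to 4, against -1.42, -1.61, -0.26 and -0.34 on WT 1 to 4. Every BSKO array lay above every WT array, and the gap between the lowest BSKO array and the highest WT array was 0.51. The mean was 0.88 ± 0.46 in BSKO and -0.91 ± 0.71 in WT (SD, n = 4 each), a difference of 1.79 (SE 0.36, 95% confidence interval 0.97 to 2.60), or 3.45-fold. Drd2 had the smallest adjusted p of the 7 genes without a covariate (limma adjusted p = 0.123), and ranked 8 of 12393 genes by the size of its increase. BSKO 2 lay 0.57 above BSKO 1 for Drd2.

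Ppp1r1b encodes DARPP-32, which inhibits protein phosphatase 1 once protein kinase A has phosphorylated it. Its values on probe set 1451331_at were 0.04, -0.43, 1.42 and 1.33 on BSKO 1 to 4, against -2.36, -2.14, 0.12 and -0.04 on WT 1 to 4. The genotypes overlapped, since BSKO 2 lay below WT 3 and WT 4. The mean was 0.59 ± 0.93 in BSKO and -1.11 ± 1.33 in WT (SD, n = 4 each), a difference of 1.70 (SE 0.68, adjusted p = 0.385). This gene had the widest spread of the 7, with 3.79 between its lowest and its highest array. Without BSKO 2 the difference was 2.04 (adjusted p = 0.160).

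Pde10a encodes a phosphodiesterase that breaks down cyclic AMP and cyclic GMP. As the mean of its 3 probe sets it had 0.06, 0.14, 1.62 and 1.22 on BSKO 1 to 4, against -1.94, -1.61, 0.01 and -0.11 on WT 1 to 4. On this mean of the probe sets the BSKO arrays lay above the WT arrays, by 0.05 at the closest. The mean was 0.76 ± 0.78 in BSKO and -0.91 ± 1.01 in WT (SD, n = 4 each), a difference of 1.67 (SE 0.54, adjusted p = 0.299). The probe sets 1432490_a_at, 1419390_at and 1419389_at differed by 1.97, 1.63 and 1.42 between the genotypes, all in the same direction. They parted on BSKO 2, where 1419390_at was 0.71, 1432490_a_at was 0.14 and 1419389_at was -0.44. Taken alone, 1419389_at and 1419390_at overlapped between the genotypes (lowest BSKO minus highest WT array -0.50 and -0.23). The genotypes did not overlap on 1432490_a_at (0.27).

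Rasd2 encodes Rhes, a small GTP-binding protein enriched in the striatum. The mean of its 2 probe sets was 0.19, -0.26, 0.93 and 1.09 on BSKO 1 to 4, against -1.40, -1.49, -0.07 and -0.11 on WT 1 to 4. BSKO 2 lay below WT 3 and WT 4, and the other 3 BSKO arrays lay above every WT array. The mean was 0.49 ± 0.64 in BSKO and -0.77 ± 0.78 in WT (SD, n = 4 each), a difference of 1.26 (SE 0.43, adjusted p = 0.320). On BSKO 2 the probe set 1427343_at was -0.70 and 1427344_s_at was 0.18. On 1427344_s_at alone every BSKO array lay above every WT array, by 0.35 at the closest. The genotype differences were 1.05 for 1427343_at and 1.46 for 1427344_s_at.

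Penk encodes the precursor of the enkephalins, opioid peptides that neurons of the indirect pathway express. Its values on probe set 1427038_at were -0.05, -0.14, 0.59 and 0.71 on BSKO 1 to 4, against -2.02, -2.06, 0.07 and 0.05 on WT 1 to 4. BSKO 1 and BSKO 2 lay just below WT 3 and WT 4, and WT 1 and WT 2 stood far below the other 6 arrays. The mean was 0.28 ± 0.43 in BSKO and -0.99 ± 1.21 in WT (SD, n = 4 each), a difference of 1.27 (SE 0.54, adjusted p = 0.407), or 2.41-fold.

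Pdyn encodes the precursor of the dynorphins, opioid peptides that neurons of the direct pathway express. Its values on probe set 1416266_at were 0.49, -0.14, 1.12 and 1.03 on BSKO 1 to 4, against -2.08, -1.86, 0.08 and -0.08 on WT 1 to 4. The genotypes overlapped through BSKO 2, which lay below WT 3 and WT 4. The mean was 0.63 ± 0.58 in BSKO and -0.99 ± 1.14 in WT (SD, n = 4 each), a difference of 1.61 (SE 0.54, adjusted p = 0.316), or 3.06-fold.

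Tac1 encodes the precursor of substance P and neurokinin A, tachykinins of the direct pathway that are also made by neurons outside the striatum. Its values on probe set 1416783_at were 0.02, 0.16, 0.20 and 0.28 on BSKO 1 to 4, against -0.88, -0.82, -0.10 and -0.02 on WT 1 to 4. All BSKO arrays lay above all WT arrays, by 0.04 at the closest. The mean was 0.17 ± 0.11 in BSKO and -0.46 ± 0.46 in WT (SD, n = 4 each), a difference of 0.62 (SE 0.21, adjusted p = 0.320), or 1.54-fold. Its arrays spanned 1.16, the narrowest spread of the 7 genes, where the others spanned 2.59 to 3.79.

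Over the 12393 genes, limma without a covariate called 9 at an adjusted p under 0.05 (0.0726%), all of them lower in BSKO, and 0 of the 7 genes described here. At an unadjusted p under 0.05, 7 of 7 were higher in BSKO, where 6.3% of all genes were. The median difference was 1.61 over the 7 genes and 0.03 over all genes, and the 7 genes had adjusted p values of 0.123 to 0.407. With probe sets averaged per gene, all BSKO arrays lay above all WT arrays for 3 of the 7 genes. This order was found for 6.4% of all genes. WT 1 and WT 2 lay below and BSKO 3 and BSKO 4 above the remaining arrays for 7 of 7 genes and 10 of 10 probe sets. That order was found for 1.27% of all genes and 1.02% of all probe sets. It was read from the values of the 7 genes themselves, so these counts are a description and no test. At the level of probe sets, 0 of 10 were called (0.0309% of all 22626 were called in either direction) and the adjusted p values were 0.153 to 0.475. Without BSKO 2 the differences of the 7 genes were 0.62 to 2.04. Of all genes 2.15% were then called and of the 7 genes 0, with adjusted p values of 0.0651 for Drd2 to 0.227 for Penk.

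The comparison was next made with the split of the replicates taken into account. The labels do not say what distinguishes replicates 1 and 2 from replicates 3 and 4, and the split was known from earlier results of these data. The calls for the split, and those with the split as a term, therefore describe these arrays and are no independent test. Replicates 3 and 4 were higher than replicates 1 and 2 for all 7 genes, by 0.47 for Tac1 to 1.93 for Ppp1r1b. Ppp1r1b (3.82-fold), Pde10a (2.88-fold) and Rasd2 (2.30-fold) rose in replicates 3 and 4 with an adjusted p of 0.0208 each, where 0.153% of all genes did. The difference was found within each genotype: it was 0.15 to 1.57 within BSKO and 0.79 to 2.29 within WT. Without BSKO 2, 5 of the 7 genes were called as higher in replicates 3 and 4 (0.88% of all genes), Drd2 (1.11, adjusted p = 0.00620) and Penk (1.54, adjusted p = 0.0470) in addition. Leaving out BSKO 3 or any WT array left 0 of the 7 called, and leaving out BSKO 4 left 1.

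With this split as a term in the fit, the genotype differences were the same as before, because the design is balanced, and their errors were smaller. The median SE over the 7 genes was 0.168 with the term and 0.536 without it, while over all genes it was 0.140 and 0.149. Pde10a rose in BSKO by 1.67 (SE 0.14, adjusted p = 0.00949), Drd2 by 1.79 (SE 0.17, adjusted p = 0.0130), Rasd2 by 1.26 (SE 0.13, adjusted p = 0.0141), Ppp1r1b by 1.70 (SE 0.18, adjusted p = 0.0146) and Pdyn by 1.61 (SE 0.24, adjusted p = 0.0452). Penk (adjusted p = 0.0969) and Tac1 (adjusted p = 0.145) did not pass. In this fit 0.339% of all genes rose in BSKO. Of the 10 probe sets 6 rose (0.186% of all probe sets), namely those of Drd2 and Ppp1r1b, all 3 of Pde10a, and 1427344_s_at of Rasd2. Without BSKO 2 the same 5 genes were called, with adjusted p values of 0.00181 for Drd2 to 0.0230 for Pdyn, where 2.16% of all genes rose. With BSKO 3, WT 1, WT 2, WT 3 or WT 4 left out, none of the 7 genes passed. In those 5 fits their differences were 0.55 to 1.87, their lowest adjusted p was 0.0522 to 0.0733, and 0 to 3 of all genes were called. With BSKO 4 left out 3 of the 7 passed, where 0.0726% of all genes rose.

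**Figure D2:**
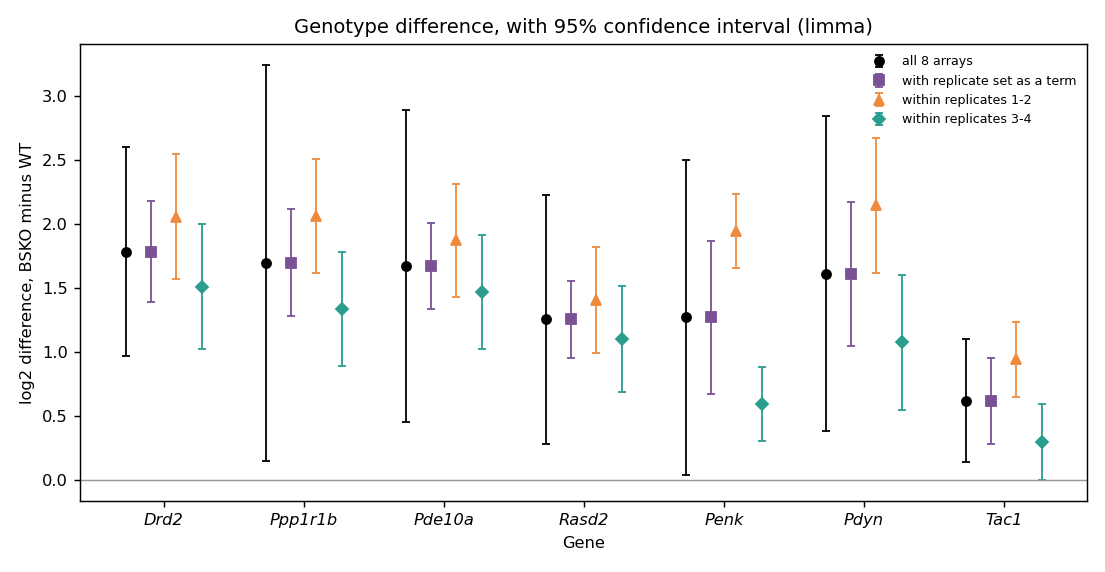
Log2 difference between BSKO and WT for each gene (vertical axis) with its 95% confidence interval from limma, from all 8 arrays without a covariate (black), with the replicate split as a term (purple), within replicates 1 and 2 (orange) and within replicates 3 and 4 (green). The intervals without a covariate are the widest, and every difference is larger within replicates 1 and 2 than within replicates 3 and 4.

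Within replicates 1 and 2 (2 BSKO and 2 WT arrays, with the spread pooled over the 4 pairs of arrays) all 7 genes rose in BSKO. BSKO 2 was 1 of these 2 BSKO arrays, and this comparison is not given without it. The differences were 0.94 for Tac1, 1.41 for Rasd2 and 1.87 to 2.15 for the other 5, with adjusted p values of 0.00221 for Penk to 0.0246 for Tac1, where 0.403% of all genes rose. Within replicates 3 and 4 none of the 7 passed, nor did any of the 12393 genes in either direction (0%). The differences there were 1.51 for Drd2, 1.47 for Pde10a, 1.34 for Ppp1r1b, 1.10 for Rasd2, 1.08 for Pdyn, 0.60 for Penk and 0.30 for Tac1, with adjusted p values of 0.150 to 0.759. At an unadjusted p under 0.05 the 7 genes were all higher within replicates 3 and 4, where 3.52% of all genes were. Both BSKO arrays lay above both WT arrays within each pair of replicates for 7 of 7 genes, an order found for 10.7% of all genes.

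The difference between these 2 genotype effects was then tested as an interaction, and none of the 7 genes passed (0.0484% of all genes did). It was -1.35 for Penk (SE 0.17, 95% confidence interval -1.76 to -0.95, adjusted p = 0.0988) and -1.07 for Pdyn (SE 0.31, interval -1.82 to -0.33, adjusted p = 0.694). For Pde10a it was -0.40 (interval -1.03 to 0.22) and for Rasd2 -0.31 (interval -0.89 to 0.28). Penk had the largest interaction of the 7 genes, 3.86-fold higher in BSKO within replicates 1 and 2 and 1.51-fold higher within replicates 3 and 4. With BSKO 1 left out, so that BSKO 2 alone stood for BSKO in its pair, 4 of the 7 passed this test and so did 47.6% of all genes. With BSKO 2 left out 2 of the 7 passed, where 0.621% of all genes did. The lone array is assumed to vary like the other pairs.

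The arrays of a pair were compared as well. The gap between BSKO 3 and BSKO 4 had a median of 0.125 over the 7 genes, that between WT 1 and WT 2 of 0.187, and that between WT 3 and WT 4 of 0.0803. The gap between BSKO 1 and BSKO 2 was wider, with a median of 0.445 and 0.629 for Pdyn. The mean of the 7 genes was 0.14, 0.02, 1.00 and 0.99 on BSKO 1 to 4, and -1.73, -1.66, -0.02 and -0.09 on WT 1 to 4. The correlation between pairs of the 7 genes over the 8 arrays was 0.906 (Drd2 with Ppp1r1b) to 0.990 (Ppp1r1b with Rasd2). For all 7 genes WT 1 and WT 2 were lowest and BSKO 3 and BSKO 4 highest, and these correlations describe that order.

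The direct pathway was represented by Tac1 and Pdyn, and the indirect pathway by Drd2 and Penk. The RNA was of whole brain, so the part of these values that came from striatal neurons was not measured. The mean of Tac1 and Pdyn was 0.40 ± 0.32 in BSKO and -0.72 ± 0.80 in WT (SD, n = 4 each), a difference of 1.12. The mean of Drd2 and Penk was 0.58 ± 0.42 in BSKO and -0.95 ± 0.96 in WT, a difference of 1.53. Both pairs of genes were thus higher in BSKO on average. Direct minus indirect was 0.15, -0.33, -0.20 and -0.35 on BSKO 1 to 4, against 0.24, 0.49, 0.09 and 0.09 on WT 1 to 4. The groups overlapped, since BSKO 1 lay above WT 3 and WT 4. The means were -0.18 ± 0.23 in BSKO and 0.23 ± 0.19 in WT (SD, n = 4 each), a difference of -0.41, with -0.46 within replicates 1 and 2 and -0.37 within replicates 3 and 4. As a score over genes chosen with earlier results known, it was given no test. The value depended on which genes stood for each pathway, and the arrays of Tac1 spanned the narrowest range. Pdyn alone minus the mean of Drd2 and Penk differed by 0.08 between the genotypes (0.26 without BSKO 2), and Tac1 alone by -0.91 (-0.98 without BSKO 2). Between the opioid precursors, Pdyn minus Penk differed by 0.34, while Pdyn minus Drd2 differed by -0.17. Tac1 minus Penk differed by -0.65 and Tac1 minus Drd2 by -1.16.

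**Figure D3:**
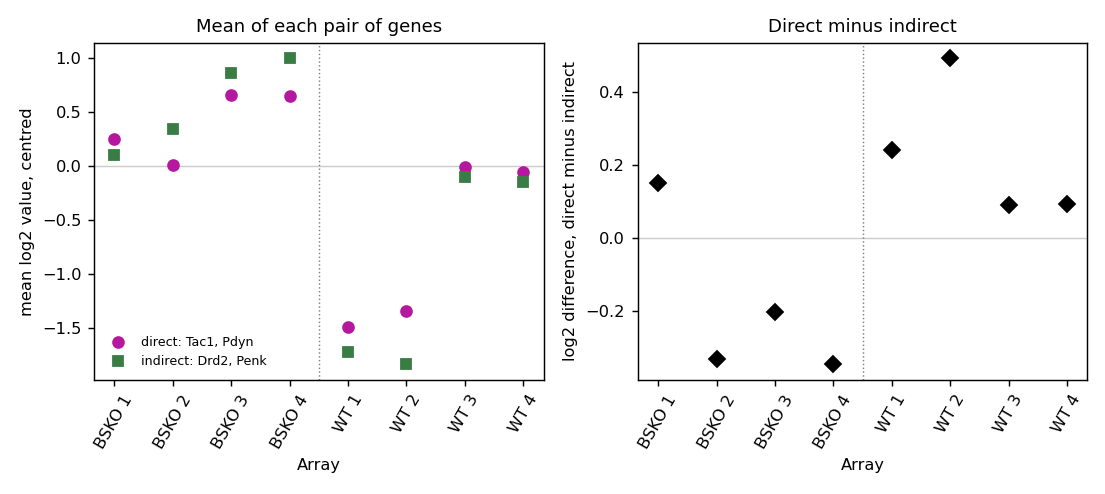
Left, the mean log2 value of Tac1 and Pdyn (circles) and of Drd2 and Penk (squares) on each array, BSKO left of WT. Right, the difference between these means (direct minus indirect), which is below 0 on BSKO 2, 3 and 4 and above 0 on BSKO 1 and all WT arrays. Values are centred per probe set, so 0 does not mark equal levels of the pairs of genes.

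Further genes of dopamine and cyclic AMP signalling were examined from a list of 32, of which 22 were measured. In BSKO 20 were higher and 2 lower, with a median difference of 0.31, against 0.03 over all genes, and 0 of the 22 were called without a covariate. With the replicate split as a term 3 rose and 0 fell, where 0.339% of all genes rose. Rgs9 encodes the striatal accelerator of G protein inactivation and rose by 1.54 (SE 0.17, adjusted p = 0.0147). Pde1b, a calcium-dependent phosphodiesterase gene, rose by 0.93 (SE 0.10, adjusted p = 0.0147). Pde7b, a phosphodiesterase gene for cyclic AMP, rose by 0.90 (SE 0.14, adjusted p = 0.0492). Rasgrp1 (0.63) and Rasgrp2 (0.90), which encode activators of small GTPases, did not pass (adjusted p = 0.154 and 0.283 in the same fit). Without BSKO 2 the fit with the split called 8 of the 22, all higher, where 2.16% of all genes rose. It called 2 without BSKO 1, 1 without BSKO 3 or BSKO 4, and 0 without any 1 of the WT arrays. Of all genes these fits called 53 without BSKO 1, 3 without BSKO 3, 16 without BSKO 4 and 0 to 2 without a WT array. The median of the list was -0.09, -0.05, 0.49 and 0.41 on BSKO 1 to 4, against -0.34, -0.45, 0.09 and -0.01 on WT 1 to 4. It was lowest on WT 1 and WT 2 and highest on BSKO 3 and BSKO 4, as for the 7 genes, over a smaller range.

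A list of other markers of striatal projection neurons shared 6 measured genes with the signalling list. All 15 measured markers were higher in BSKO, with a median of 0.63, and 0 were called without a covariate. Without BSKO 2 that fit called 1 of them, Foxp1 (limma adjusted p = 0.0455), where 2.15% of all genes were called. With the replicate split as a term 5 rose (0.339% of all genes did). This count was 5 without BSKO 1, 8 without BSKO 2, 1 without BSKO 3 or BSKO 4, and 0 without any 1 of the WT arrays. Of all genes these fits called 53, 565, 3 and 16 in either direction without BSKO 1 to 4, and 0 to 2 without a WT array. Rgs9 and Pde1b were among the 5 markers that rose with all arrays, and the others were Foxp1, Actn2 and Rxrg. Foxp1, a forkhead transcription factor gene, rose by 0.85 (adjusted p = 0.0198) and Actn2, an actinin gene, by 1.18 (adjusted p = 0.0146). Rxrg, a retinoid receptor gene named after its value was seen, rose by 1.21 (adjusted p = 0.0147). Isl1, a transcription factor gene that marks developing direct pathway neurons, differed by 1.40 and did not pass (adjusted p = 0.157 in the same fit). The 10 genes for opioid and tachykinin receptors and other peptides had a median difference of 0.14 and 0 were called in either fit. Among them the delta opioid receptor gene Oprd1 differed by 0.51, the kappa opioid receptor gene Oprk1, whose product binds dynorphin, by 0.83, the neurokinin B receptor gene Tacr3 by -0.57 and the peptide gene Cartpt by 0.93. Cartpt passed the test of the interaction described above (adjusted p = 0.0391), with 1.28, 1.41, 0.05 and -0.10 on BSKO 1 to 4, against -0.57, -0.51, 0.03 and -0.03 on WT 1 to 4. Without BSKO 2 and with the split as a term 1 of the 10 passed, Oprk1 (adjusted p = 0.0481), where 2.16% of all genes rose.

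Markers of other regions and cell types moved over the same arrays, each as a list median of centred values. The 7 markers of midbrain dopamine neurons, which supply the striatum with dopamine, had 6 lower in BSKO and a median difference of -0.84. Their median was -0.22, -0.11, -0.75 and 0.18 on BSKO 1 to 4, against 1.24, 1.12, -0.04 and -0.10 on WT 1 to 4. They were thus highest on WT 1 and WT 2, where the striatal genes were lowest, and 0 of the 7 passed with or without the split as a term. The dopamine transporter gene Slc6a3 differed by -3.87 and Nr4a2, a transcription factor gene of these neurons, by -1.17 (adjusted p = 0.281 and 0.319). The 5 dentate gyrus markers had medians of -0.35 to -0.08 in BSKO, against 0.72, 0.77, 0.04 and 0.01 on WT 1 to 4. The 8 meningeal and fibroblast markers had medians of -0.88 to -0.21 in BSKO, against 0.65, 0.63, 0.10 and 0.15 on WT 1 to 4. The 6 hypothalamic markers separated BSKO 1 (1.19) and BSKO 2 (1.60) from BSKO 3 (-0.80) and BSKO 4 (-0.36). The list medians of the 6 cortical markers lay between -0.08 and 0.06 and those of the 8 cerebellar markers between -0.10 and 0.11, while single members varied more. Neurod1, a transcription factor gene on the cerebellar list, was -1.13, -0.61, -0.90 and -0.70 on BSKO 1 to 4, against 0.83, 0.41, 0.22 and 0.45 on WT 1 to 4. It fell by 1.31 in BSKO (limma adjusted p = 0.0495 without a covariate and 0.0231 with the split). Over all 8 arrays Neurod1 was the 1 marker on any of these lists that passed without a covariate. Without BSKO 2 it passed that fit again (adjusted p = 0.0125), where 2.15% of all genes were called. Foxp1, named above, then passed as well, and so did Ogn (0.0300) and Lum (0.0455) of the meningeal list, both lower in BSKO. Cbln1, a cerebellin gene on the cerebellar list, was 1.01, 0.44, -1.02 and -1.09 on BSKO 1 to 4, against 0.73, 0.80, -0.47 and -0.47 on WT 1 to 4. The cortical marker Neurod6 was -0.06, -0.28, -0.01 and -0.09 on BSKO 1 to 4, against 0.99, 0.83, 0.01 and 0.25 on WT 1 to 4. Neurod1, Cbln1 and Neurod6 were named after their values were seen. The part of these marker lists in the differences of the striatal genes was not tested.

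**Figure D4:**
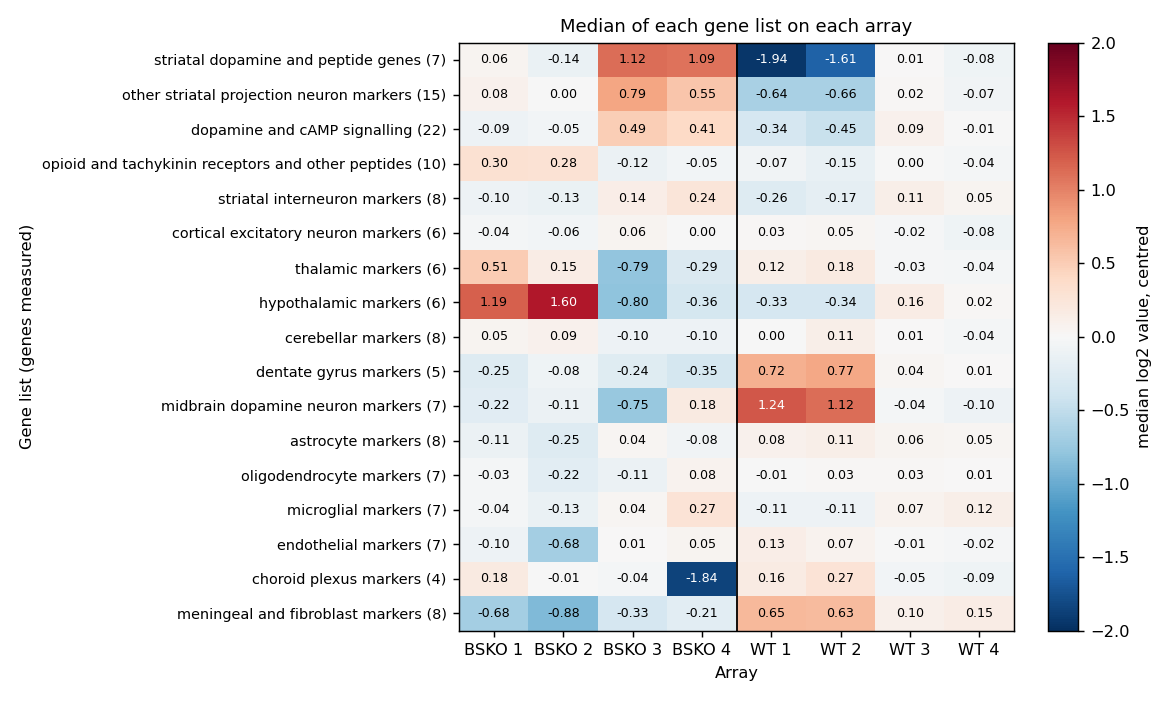
Median log2 value (colour and printed value, centred) of each gene list (rows, with the number of genes measured) on each array (columns, BSKO left of WT). The signalling list and the projection neuron lists are lowest on WT 1 and WT 2 and highest on BSKO 3 and BSKO 4, while the midbrain dopamine, dentate gyrus and meningeal lists are highest on WT 1 and WT 2.

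The genes whose values followed the mean of the 7 genes most closely over the 8 arrays were ranked by Pearson correlation among the 12386 other genes. The 8 highest were Rgs9 (0.989), Dmkn (0.987), Asb11 (0.982), Pde1b (0.981), Sesn3 (0.980), the vesicular acetylcholine transporter gene Slc18a3 (0.979), Arid3b (0.974) and Ptprv (0.973). Without BSKO 2 these correlations were 0.975 to 0.995. Their range over the arrays went from 0.503 for Sesn3 to 3.88 for Dmkn. In all, 89 genes had a correlation above 0.9 and 53 one below -0.9. For Drd2 alone the 3 highest were Rnf166 (0.985), Crip2 (0.984) and Musk (0.983). These values describe likeness over arrays with the order given above.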

How the data were processed

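The 8 arrays carried total RNA of whole brain. The submitters' processing notes name RMA, and the authors deposited log2 values for 22690 probe sets. All but 1 of these (22689) were centred on their median, to within 1e-05, a step recorded in no label. From the tests 64 control probe sets were omitted, and dim probe sets could not be filtered on centred values. Symbols came from the platform annotation. For 20351 of the 20380 probe sets with 1 symbol the gene number was found in RefSeq. The value of a gene was the mean over its probe sets.

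Genotypes were compared by limma 3.58.1 under R 4.3.3 (eBayes, two-sided, Benjamini-Hochberg over all genes or probe sets, threshold 0.05): without a covariate, with a term for the split (replicates 1 and 2, 3 and 4), and over the 4 pairs of arrays for the interaction. The code was tested on simulated data. Named genes were the members, up to 4 genes of smallest p per list, signalling genes called with the split, and those of highest correlation. The members and lists were chosen with earlier results of these data known, so a count over a list is a description. Alternatives covered normalization (quantile, centred arrays), cross-hybridising probe sets, eBayes settings (trend, robust), array weights, the replicate number as a block, the split as a term, the probe set per gene, a threshold of 0.10, a minimum fold of 1.2 and each array left out. Those for the interaction, and the pathway score without Tac1, were added after seeing the data. Figures were drawn with matplotlib 3.10.9.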

Additional observations from a re-analysis of the deposited data

How the results depend on the processing

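All 7 genes were higher in BSKO under every alternative run. Without a covariate 0 genes and 0 probe sets were called, except with quantile normalization (1 gene, Drd2, and 1 probe set, where 3.33% of all genes were called), with array weights (3 genes and 8 probe sets, where 9.96% of all genes were called and BSKO 2 had a weight of 0.0493) and with the split as a term (6 probe sets). Leaving out any 1 array gave 0 of either. With the split as a term 5 genes were called, 4 to 7 under other settings, and 0 to 5 when an array was left out. Of all genes 0 to 2.16% rose in the fits with an array left out. The calls for replicates 3 and 4 over 1 and 2 were 3 genes, 6 with quantile normalization, 7 with array weights, 0 with the probe set of highest variance per gene, and 0 to 5 when an array was left out. For the other settings of both tests the share of all genes called is not given here. The counts of the 7 genes under those settings therefore cannot be set against it. The interaction called 0 of the 7 genes, and 0 to 4 when an array was left out (4 without BSKO 1, where 47.6% of all genes were called). The median difference of 1.61 lay between 1.25 and 1.97, and direct minus indirect between -0.52 and -0.32. Without Tac1 the pathway score was 0.083, since Pdyn then stands alone for the direct pathway. With the replicate number as a replicate block 0 of the 7 genes were called (lowest adjusted p = 0.113), as without it. Same-numbered arrays had deviations from their group means that correlated by 0.0562 to 0.140, and arrays of unlike number by -0.147 to 0.165. The first range lies within the second, so these values cannot settle whether the numbers pair the samples. The numbers were not taken to pair them. The causes of these changes were not tested. With 4 arrays per genotype, and 2 within each pair, the number of arrays limits what could be called.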

Other observations

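The 8 measured markers of striatal interneurons, the local neurons that release acetylcholine or GABA within the striatum, had 4 higher and 4 lower in BSKO, and 0 were called with or without the replicate split as a term. Slc18a3 and Slc5a7, both markers of cholinergic neurons, were lowest on WT 1 and WT 2 and highest on BSKO 3 and BSKO 4. Slc18a3, the vesicular acetylcholine transporter gene, was -0.06, -0.14, 0.48 and 0.36 on BSKO 1 to 4, against -0.86, -0.75, 0.06 and 0.09 on WT 1 to 4. It differed by 0.53 (adjusted p = 0.446 by limma, and 0.0956 with the split as a term). Without BSKO 2 it passed in the fit with the split (adjusted p = 0.0360), where 2.16% of all genes rose. Slc5a7, the choline transporter gene, differed by 0.49 (adjusted p = 0.473). Pvalb, a calcium-binding protein gene of fast-spiking interneurons, differed by -0.27 (adjusted p = 0.468), and its WT arrays lay between -0.01 and 0.12.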
